A study of Mus musculus with 34 samples.

Results

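The response of CAD cells to a miR-138 mimic was measured against pUC19 plasmid DNA while the cells were still in serum. CAD is a mouse catecholaminergic neuronal line, described by its source label as neuroblastoma cells, that stops dividing and grows processes when serum is removed. The comparison was chosen by sample title: it holds 4 polyA RNA-seq libraries of the 34 libraries in the series, 2 carrying the miR-138 mimic and 2 carrying pUC19, all from an experiment of 14 libraries that the titles number 3. All 14 came from cells with the genotype label mir-138 DKO, so treated cells and controls carried the same knockout label. The labels give neither the alleles nor how many clones the line stands for.

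Mimics, synthetic duplexes that stand in for a mature miRNA, were transfected at 3 nM with a lipid reagent, and serum was removed 48 h later; the serum libraries are the ones taken at 0 days of withdrawal. Further groups of 2 libraries each serve as reference points: cells given a miR-137 mimic at 3 nM in serum, cells titled DKO_2 in serum, whose labels name no mimic or DNA, and the same miR-138 mimic and pUC19 groups 2 days after serum removal. The labels do not say whether the DKO_2 cells are another clone or cells without transfection. Wild-type and DKO serum libraries of a first experiment, 2 of each, were sequenced and fitted apart. The labels do not give the amount of pUC19 or its reagent, and pUC19 is double-stranded DNA while the mimic is RNA, so in the main comparison the miRNA sequence and the kind of nucleic acid cannot be told apart. The design text speaks of triplicates and the library protocol of duplicates; 2 libraries per group were analysed. The labels leave unsaid whether the libraries of a group had their own cultures, and the spread behind each p-value may be technical.

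MicroRNAs guide Argonaute proteins to messenger RNAs, mostly through pairing of the seed, bases 2 to 8 of the miRNA, with sites in 3′ untranslated regions, and lower the level or translation of those messages. miR-138 is abundant in neurons, where it is known for limiting dendritic spine growth through Lypla1, and in other cells it is known for acting on cell-cycle, motility and chromatin genes. A change in mRNA level after a mimic mixes direct targets with everything downstream of them.

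The sequence of the transfected miRNA is shown beside that of the other mimic because the comparison turns on it. Seeds are in capitals and sequences are from RefSeq (GRCm38.p6).
miR-138-5p: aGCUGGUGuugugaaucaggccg
miR-137-3p: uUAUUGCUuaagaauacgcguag
The mature miR-138-5p strand is identical from its 2 hairpin genes, Mir138-1 (chr9:122682898-122682920, plus strand) and Mir138-2 (chr8:94324312-94324334, plus strand). Its seed pairs with CACCAGC in a message, and 1 of 1679 mature mouse miRNA names in RefSeq carries that seed. The miR-137-3p strand lies at chr3:118433901-118433923 on the plus strand, and its seed has the same base as that of miR-138 at 2 of 7 positions. Which messages hold a seed match was not examined, since no 3′ untranslated sequence was used here.

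The mimic libraries held 24299851 and 25582125 reads assigned to genes and the pUC19 libraries 18805687 and 12885638, within a range of 12740836 to 25582125 over the 14 libraries. Reads assigned to the Mir138-1 hairpin numbered 24 and 32 with the mimic and 18 and 15 with pUC19, and the Mir138-2 hairpin had 0 in all 14 libraries, which allows up to 3 reads in each; polyA libraries measure neither mature miRNA nor a transfected mimic. The cells fitted their label in part: the sympathetic transcription factors Hand2, Phox2a and Gata2 and the peripheral neurofilament-like protein gene Prph were abundant, and Dbh, the noradrenaline-forming enzyme, was present at 9.41 to 15.4 CPM, counts scaled to library size, but the tyrosine hydroxylase gene Th had 2, 0, 1 and 1 reads and the transporters Slc18a2, Slc6a2 and Slc6a3 had 0. Summed markers of other cell types were low in all 4 libraries: 4.31 to 5.82 CPM, here without the TMM factors, for 13 glial markers, 6.98 to 12.8 for 8 fibroblast markers and 0.576 to 1.06 for 8 immune markers, with 5, 2 and 5 of them at 0.

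With the miR-138 mimic, genes moved widely but mostly by small amounts. Of 12655 genes tested with edgeR's quasi-likelihood test, 3631 were higher (28.7%) and 3458 lower (27.3%) at a Benjamini-Hochberg adjusted p under 0.05, together 56.0% of the genes. The 2 mimic libraries lay wholly above the 2 pUC19 libraries in 41.2% of genes and wholly below in 36.8%. Changes of at least 2-fold were far fewer, 433 higher (3.42%) and 473 lower (3.74%), and the median log2 fold change of all genes was 0.03. Replicates lay close together (common dispersion 0.00223). The counts of each gene list below are to be read against these shares.

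**Figure D1:**
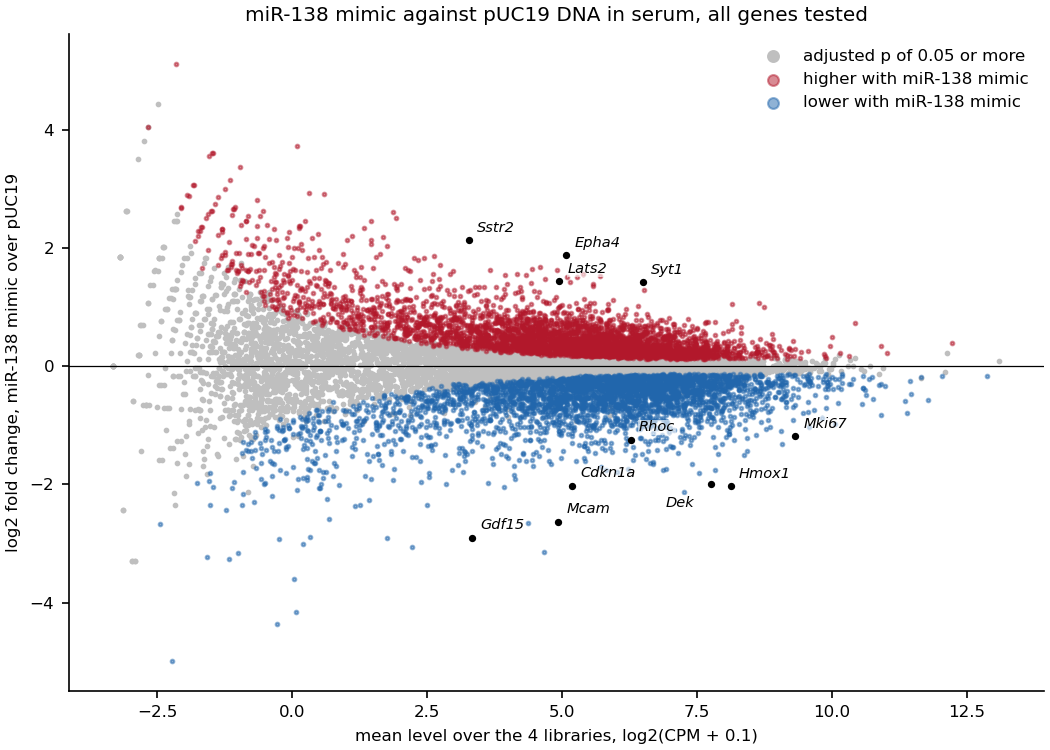
Log2 fold change of each of the 12655 genes tested (miR-138 mimic over pUC19 in serum, vertical axis) against its mean level over the 4 libraries, as log2(CPM + 0.1); red genes were higher and blue lower at an adjusted p under 0.05, and grey genes did not pass. Named genes are in black: Gdf15 and Mcam lie lowest among them, and Sstr2 and Epha4 highest.

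The other serum groups give a second view of these calls. The DKO_2 libraries and the miR-137 mimic libraries give, with pUC19, 6 other serum libraries. Of the 473 genes at least 2-fold lower than in pUC19, 324 (68.5%) were below all 6, and of the 433 at least 2-fold higher, 379 (87.5%) were above all 6. The choice had already put these genes below or above the pUC19 libraries, so the shares of all genes (22.6% and 24.7%) are background and no reference for them. For the remaining falls at least 1 other serum library was as low as a mimic library. Wherever a change named below did not pass against DKO_2, or passed with the opposite sign, that value is given with it. Set directly against DKO_2, the mimic libraries had 3731 genes higher (29.5%) and 3874 lower (30.6%).

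Messages reported in the literature as miR-138 targets were mostly lower with the mimic. Of 30 genes listed, 29 were tested, and 23 fell, 5 rose and 1 (Limk1) did not pass, with a median log2 fold change of -0.71 against 0.03 for all genes. The list was assembled with earlier results of these libraries known, so its direction is not independent evidence.

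Nfix, a nuclear factor I transcription factor, fell most among them. It stood at 57.9 and 55.9 CPM with the mimic, 248 and 250 with pUC19, 234 and 250 in DKO_2 and 169 and 165 with the miR-137 mimic, a log2 fold change of -2.13 ± 0.06 against pUC19 (SE; adjusted p = 7.26e-15). The mimic libraries were thus below every other serum library, and pUC19 and DKO_2 overlapped. Ccnd3, cyclin D3, which drives passage through G1, was at 47.6 and 50.3 CPM with the mimic and 150 and 160 with pUC19 (-1.66 ± 0.07, adjusted p = 9.74e-13). DKO_2 had 169 and 180 CPM of Ccnd3, above pUC19. Senp1, a protease that removes SUMO from proteins, was at 42.2 and 42.9 CPM against 118 and 122 (-1.50 ± 0.06, adjusted p = 7.47e-13). Rhoc, a small GTPase of actin and cell migration, was at 46.6 and 45.0 CPM against 108 and 108, with 90.7 and 99.0 in DKO_2 (-1.24 ± 0.07, adjusted p = 2.6e-11). In these 4 genes no mimic library reached any other serum library.

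The spine regulator Lypla1, a depalmitoylating enzyme, was at 71.6 and 72.2 CPM with the mimic against 145 and 126 with pUC19 and 185 and 169 in DKO_2 (log2 fold change -0.92 ± 0.07, adjusted p = 3.07e-09). Chromatin and DNA-repair members fell to a like extent: Ezh2, the polycomb methyltransferase, by 1.06 ± 0.07, the deacetylase Sirt1 by 0.99 ± 0.08 and H2afx, the histone variant marked at DNA breaks, by 0.90 ± 0.09 on the log2 scale. Adhesion and cytoskeleton members did too: Rock2, a kinase of actin contraction, by 0.98 ± 0.06, the focal adhesion kinase gene Ptk2 by 0.80 ± 0.05, the intermediate filament gene Vim by 0.79 ± 0.06 and the integrin activator Fermt2 by 0.74 ± 0.05. Among transcription factors, Foxc1 fell by 0.97 ± 0.14, Sp1 by 0.71 ± 0.06 (as with the miR-137 mimic, at -0.72), Hif1a by 0.70 ± 0.06 and Zeb2 by 0.66 ± 0.07. All of these were also lower than in DKO_2, where the list as a whole had 22 members lower, 4 higher and a median of -0.72.

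A smaller set moved little or upward. Yap1, a Hippo-pathway coactivator, was at 36.3 and 39.4 CPM with the mimic against 45.1 and 45.2 (log2 fold change -0.25 ± 0.07, adjusted p = 0.00379), a call that was lost without mimic replicate 1 (-0.19, adjusted p = 0.0712). Map3k11 (-0.24 ± 0.09, and 0.10 against DKO_2 with an adjusted p of 0.372) lost its call without mimic replicate 2 (-0.16, adjusted p = 0.229) and without pUC19 replicate 2 (-0.11, adjusted p = 0.398). Limk1, the spine and actin kinase, had 83.3 and 82.9 CPM against 86.2 and 91.3 (-0.09 ± 0.06, adjusted p = 0.18). Pdk1, a kinase that inhibits pyruvate dehydrogenase, was higher at 16.6 and 15.3 CPM against 7.32 and 8.56 (1.02 ± 0.12, adjusted p = 3.82e-07). Blcap (0.63 ± 0.05), the telomerase subunit Tert (0.59 ± 0.12), Mxd1 (0.39 ± 0.12) and the matrix proteoglycan Vcan (0.21 ± 0.05, and 0.08 against DKO_2 with an adjusted p of 0.177) rose as well, Mxd1 without passing under DESeq2 (0.37, adjusted p = 0.104) or without pUC19 replicate 2 (0.35, adjusted p = 0.0642).

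The same genes could be followed in the first experiment, in libraries with no transfection, as cells labelled DKO against wild type. Reads at the Mir138-1 hairpin do not show the knockout: they stood at 0.686 and 0.558 CPM in the wild-type and 5.93 and 7.73 in the libraries labelled DKO, and polyA reads there are not mature miRNA, so the labels are used as given. Across all 13630 genes tested 40.7% passed in this comparison, 19.2% higher and 21.5% lower in the libraries labelled DKO. Of the 29 targets, 15 were higher in DKO cells and 6 lower, and 14 of the 23 that fell with the mimic were among the 15. Over all genes that fell with the mimic and were measured there, 985 of 3434 (28.7%) were higher in DKO cells, and 20.8% of all 12388 genes in both fits were. Nfix again stood out: it was at 45.2 and 36.5 CPM in wild-type and 275 and 227 in DKO cells (log2 fold change 2.62 ± 0.11, adjusted p = 1.48e-10), so the mimic libraries, at 57.9 and 55.9 CPM, lay near the wild-type level, although the 2 experiments were normalised apart. For Ccnd3 the DKO against wild-type difference was 1.71 ± 0.08, for Rhoc 1.26 ± 0.09 and for Foxc1 1.55 ± 0.21. Sox9, a SOX transcription factor, was 2.35 ± 0.08 higher in DKO cells and fell by 0.46 ± 0.06 with the mimic. Blcap went up in both comparisons (1.64 ± 0.09 in DKO cells), and Pdk1 rose with the mimic while lower in DKO cells (-2.13 ± 0.16), at 26.8 and 21.4 CPM in wild type and 6.45 and 4.38 in DKO. Lower in both comparisons were Bhlhe40 (-1.26 ± 0.10 with the mimic and -1.02 ± 0.13 in DKO cells), Sox4 (-0.33 ± 0.06 and -0.38 ± 0.07) and Ccnd1 (-0.50 ± 0.06 and -0.25 ± 0.07).

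**Figure D2:**
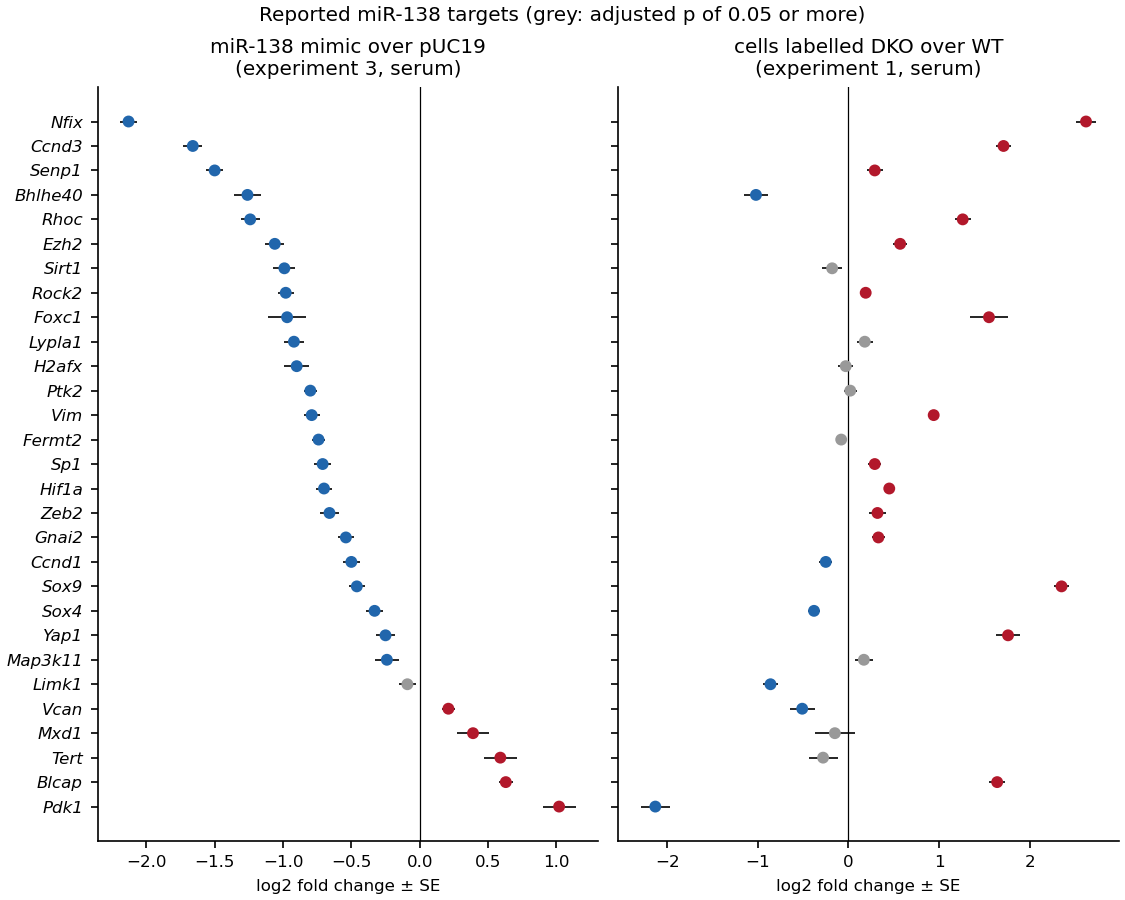
Log2 fold changes ± SE of the 29 reported miR-138 targets tested: miR-138 mimic over pUC19 in serum (left) and cells labelled DKO over wild type in serum (right), with blue for lower, red for higher and grey for an adjusted p of 0.05 or more. Nfix, Ccnd3, Rhoc and Foxc1 lie far to the left with the mimic and far to the right in DKO cells; 14 genes are blue on the left and red on the right.

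Outside that list the largest falls held 2 main kinds of gene, set apart by the DKO_2 libraries. Cdkn1a, given with the G1 genes below, had features of both. In the first kind the mimic libraries were low against every other serum library. Mcam, a cell adhesion molecule, was at 8.11 and 8.75 CPM with the mimic, 50.4 and 54.4 with pUC19 and 35.1 and 38.9 in DKO_2 (log2 fold change -2.63 ± 0.15, adjusted p = 3.38e-11). The miR-137 mimic libraries had 19.9 and 25.1 CPM of Mcam, also lower than pUC19 (-1.22, adjusted p = 9.47e-07). Dek, a chromatin protein of dividing cells, was at 90.5 and 84.7 CPM against 371 and 322, with 456 and 409 in DKO_2 (-1.99 ± 0.08, adjusted p = 3.72e-13). Ethe1, a mitochondrial sulfide-clearing enzyme, was at 6.14 and 5.6 CPM against 24.4 and 23.8, with 25.6 and 23.0 in DKO_2 (-2.04 ± 0.10, adjusted p = 4.25e-12). Cenpx, a kinetochore and DNA-repair protein, was at 4.96 and 4.89 CPM against 18.9 and 20.0 (-1.98 ± 0.12), and Lfng, which modifies Notch, at 3.47 and 2.26 against 11.9 and 10.8 (-1.99 ± 0.18).

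In the second kind the mimic libraries were near or above DKO_2 and pUC19 was high, in some cases with the miR-137 mimic. Hmox1, the haem-degrading stress enzyme, was at 106 and 112 CPM with the mimic, 451 and 443 with pUC19, 86.8 and 88.6 in DKO_2 and 129 and 118 with the miR-137 mimic. Its log2 fold change was -2.03 ± 0.07 against pUC19 and 0.32 ± 0.07 against DKO_2. Gdf15, a stress-induced secreted factor, was at 2.21 and 2.48 CPM with the mimic, 16.8 and 18.5 with pUC19 and 1.53 and 1.63 in DKO_2 (-2.90 ± 0.17 against pUC19, and 0.57 against DKO_2 with an adjusted p of 0.0548). Vgf, a neuropeptide precursor, was at 5.79 and 5.45 CPM, 32.7 and 38 and 1.37 and 2.09 in those groups, and Trim66, a nuclear chromatin-binding protein, at 1.46 and 2.15, 9.01 and 9.50 and 0.158 and 0.458. Both were lower than in pUC19 (-2.65 ± 0.12 and -2.35 ± 0.19) and higher than in DKO_2 (1.69 and 2.52). The miR-137 mimic libraries had 36.0 and 32.0 CPM of Vgf, like pUC19, 3.39 and 3.21 of Trim66 and 7.05 and 5.85 of Gdf15. For such genes the fall against pUC19 and the level against DKO_2 have opposite signs, and the cause of the high pUC19 values was not tested.

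The 12 largest rises were chosen to lie above both pUC19 libraries. Each also lay above the DKO_2 and miR-137 mimic libraries. Of all 433 rises of at least 2-fold, 379 (87.5%) were above every other serum library. Sstr2, an inhibitory somatostatin receptor, was at 16.2 and 14.9 CPM with the mimic against 3.55 and 3.46 with pUC19 and 2.69 and 3.31 in DKO_2 (log2 fold change 2.14 ± 0.14, adjusted p = 2.77e-10). Epha4, an ephrin receptor of axon guidance, was at 52.5 and 53 CPM against 14.5 and 13.9, with 18.0 and 14.6 in DKO_2 (1.89 ± 0.09, adjusted p = 4.25e-12). Chrna3, a ganglionic nicotinic receptor subunit, was at 31.6 and 33.4 CPM against 9.40 and 11.6 (1.65 ± 0.12, adjusted p = 7.6e-10). The histone deacetylase Hdac11 rose by 1.63 ± 0.19, the small DNA polymerase delta subunit Pold4 by 1.83 ± 0.16, the ciliary transition-zone gene Tmem231 by 1.68 ± 0.12 and Myo16, an unconventional myosin, by 1.72 ± 0.17. Bphl (1.87), Cyyr1 (1.61), the peroxisomal oxidase Acox3 (1.57) and the cullin Cul9 (1.56) completed the set with Ddx58, described with the interferon genes below.

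**Figure D3:**
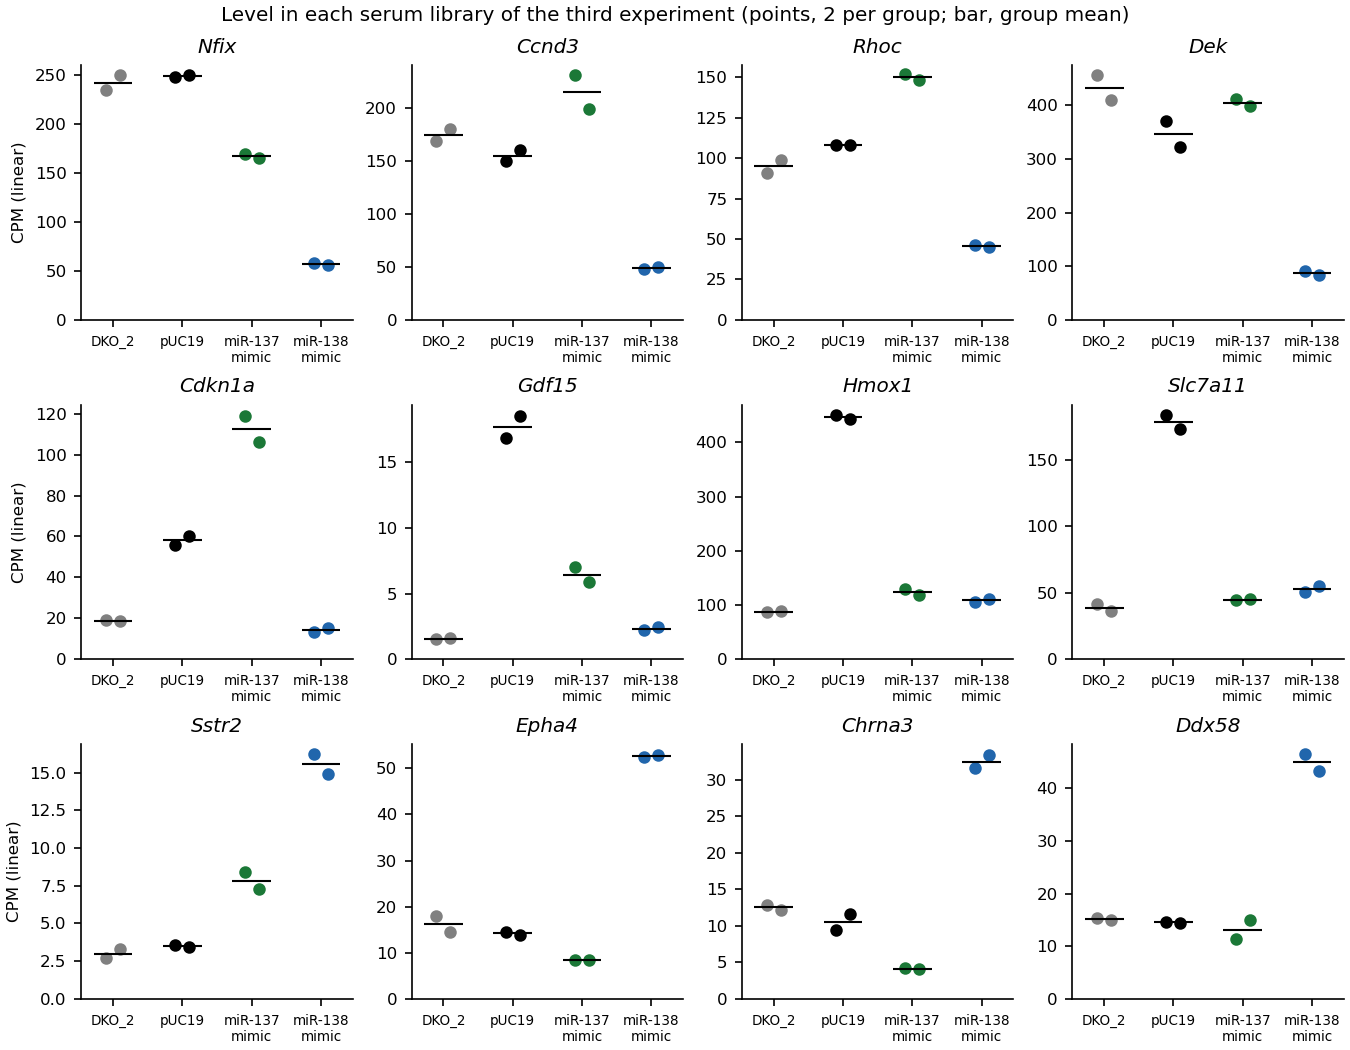
CPM of 12 genes in each of the 8 serum libraries of experiment 3 (linear axes from 0; points are libraries, 2 per group, bars group means). Nfix, Ccnd3, Rhoc and Dek are lowest with the miR-138 mimic, and Nfix with the miR-137 mimic is also below pUC19 and DKO_2. Gdf15, Hmox1 and Slc7a11 are highest with pUC19 and Cdkn1a with the miR-137 mimic. Sstr2, Epha4, Chrna3 and Ddx58 are highest with the miR-138 mimic.

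Genes of DNA replication and mitosis were lower throughout. All 30 replication genes tested fell, with a median log2 fold change of -0.80 and a range of -1.47 to -0.34, and 29 of 30 mitotic genes fell, with a median of -0.65; Bub1, a spindle checkpoint kinase, missed the threshold (-0.19 ± 0.08, adjusted p = 0.0515). Against DKO_2 all 30 genes of each list were lower, with medians of -0.99 and -0.80. With the miR-137 mimic the median change against pUC19 was 0.06 for replication and 0.27 for mitosis. In bulk RNA, fewer cells in a cycle phase and less RNA per cell cannot be told apart.

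Rrm2, the regulated subunit of ribonucleotide reductase, moved most, at 76.1 and 73.6 CPM with the mimic, 208 and 208 with pUC19 and 240 and 226 in DKO_2 (log2 fold change -1.47 ± 0.10, adjusted p = 2.56e-10). Uhrf1, which carries DNA methylation through replication, was at 134 and 121 CPM against 323 and 334 (-1.37 ± 0.07, adjusted p = 8.82e-12). Lig1, the replicative DNA ligase, was at 97.9 and 85.5 CPM against 215 and 209 (-1.21 ± 0.07), and the polymerase clamp Pcna at 84.0 and 87.6 against 188 and 176 (-1.08 ± 0.07). The 6 subunits of the MCM helicase, Mcm2 to Mcm7, fell by 0.80 to 1.08. The licensing factors Cdt1 and Cdc6 fell by 0.97 ± 0.06 and 0.71 ± 0.09, and Gins3, of the GINS complex, least (-0.34 ± 0.11, adjusted p = 0.00981). In mitosis, the spindle motor Kif11 was at 92.5 and 83.6 CPM against 210 and 195 (-1.20 ± 0.08), the proliferation antigen Mki67 at 388 and 395 against 939 and 830 (-1.18 ± 0.09), cyclin B1 (Ccnb1) lower by 1.0 ± 0.09 and Aurkb, the chromosomal passenger kinase, at 57.4 and 55.5 against 102 and 105 (-0.88 ± 0.06). No mimic library of these genes reached a pUC19 library.

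Promoter stretches of 5 replication genes that fell are shown because their list held one promoter motif in 8 of 24 genes. Letters in capitals are E2F-type motifs on either strand, 5′ to 3′ on the strand of the gene, upstream of the RefSeq start (GRCm38.p6).
Mcm5 (chr8:75109340-75109383, plus strand): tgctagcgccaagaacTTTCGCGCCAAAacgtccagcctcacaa
Mcm6 (chr1:128359729-128359768, minus strand): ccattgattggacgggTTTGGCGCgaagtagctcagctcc
Mcm7 (chr5:138172025-138172064, minus strand): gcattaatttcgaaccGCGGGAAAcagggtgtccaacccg
Cdc6 (chr11:98907997-98908036, plus strand): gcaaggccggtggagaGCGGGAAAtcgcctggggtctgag
Uhrf1 (chr17:56304112-56304151, plus strand): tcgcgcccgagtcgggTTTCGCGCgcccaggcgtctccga
The letters searched were TTTCCCGC, TTTGGCGC, TTTCGCGC and TTTGCCGC on both strands of the 250 bases before the start; TTTGGCGC and TTTCGCGC overlap in Mcm5. E2F factors bind such motifs in genes of S phase. Of 24 replication genes with a RefSeq promoter, 8 held one (33.3%), against 4.35% of 23 mitotic genes, 4.14% of the 9464 tested genes with a promoter and 2.16% of all 27025 promoters. Among genes that fell the share was 6.57% and among genes that rose 3.13%. CCAAT, the letters bound by NF-Y, stood on either strand in 70.8% of the replication and 78.3% of the mitotic promoters, against 41.4% of tested genes. A match describes the letters and is not a measured binding site.

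Regulators of G1 were divided. Of 18 tested, 10 fell, 5 rose and 3 did not pass, with a median of -0.40. Cyclin D3 fell as given above, and cyclin D1 (Ccnd1) was at 155 and 153 CPM against 216 and 219 (log2 fold change -0.50 ± 0.06, adjusted p = 3.7e-07). The transcription factors E2f1 and E2f2 fell by 0.64 ± 0.07 and 0.83 ± 0.08. Inhibitors of cyclin-dependent kinases moved both ways: Cdkn1b (p27) was at 152 and 151 CPM against 227 and 220 (-0.56 ± 0.05), Cdkn2c fell by 0.56 ± 0.07 and Cdkn2a rose by 0.20 ± 0.06. Cdkn1a (p21), a p53 target that halts the cycle, was at 13.3 and 15.3 CPM with the mimic, 56.0 and 60.3 with pUC19, 19.1 and 18.6 in DKO_2 and 119 and 106 with the miR-137 mimic. Its log2 fold change was -2.02 ± 0.12 against pUC19 and -0.40 against DKO_2 (adjusted p = 0.0131). The pocket protein genes Rb1 (0.30 ± 0.07, and 0.04 against DKO_2 with an adjusted p of 0.629) and Rbl2 (0.67 ± 0.07) rose while Rbl1 fell by 0.53 ± 0.08.

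Stress and signalling genes were lower than in pUC19 but not, as lists, than in DKO_2. Of 19 immediate-early genes tested 15 fell and 1 rose against pUC19 (median -0.65; the rise was lost under DESeq2 and without mimic replicate 2, pUC19 replicate 1 or pUC19 replicate 2), while against DKO_2 4 were lower and 9 higher (median 0.41). Atf3, an early stress factor, was at 19.0 and 18.8 CPM with the mimic, 56.9 and 57.4 with pUC19 and 4.43 and 4.68 in DKO_2 (log2 fold change -1.60 ± 0.15 against pUC19, 2.05 against DKO_2). Ier3 was at 32.1 and 36.7 CPM with the mimic, 111 and 118 with pUC19 and 29.4 and 33.0 in DKO_2, where the ranges met (-1.73 against pUC19, and 0.14 against DKO_2 with an adjusted p of 0.259). Jun was at 81.6 and 79.2, 148 and 167 and 77.6 and 83.8 CPM in that order (-0.97 against pUC19, and -0.01 against DKO_2 with an adjusted p of 0.96). Maff fell by 1.69 ± 0.13, Junb by 0.74 ± 0.08 and Fos by 0.76 ± 0.10 against pUC19. Against DKO_2, Maff (-0.04, adjusted p = 0.847) and Junb (-0.13, adjusted p = 0.182) did not pass and Fos was higher (0.73, adjusted p = 1.59e-05). Myc differed from that pattern, at 172 and 174 CPM with the mimic against 254 and 271 with pUC19 and 232 and 238 in DKO_2 (-0.60 ± 0.06 against pUC19).

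The amino-acid stress genes driven by ATF4 showed the same layout. Of 23 tested 19 fell and 1 rose, or 2 rose without pUC19 replicate 2, against pUC19 (median -0.46), and 7 were lower and 6 higher against DKO_2 (median 0.07). Slc7a11, the cystine importer, was at 50.4 and 55.4 CPM with the mimic, 184 and 173 with pUC19, 41.4 and 36.2 in DKO_2 and 44.6 and 45.4 with the miR-137 mimic (log2 fold change -1.76 ± 0.07, adjusted p = 5.03e-13), and was 0.45 higher than in DKO_2. Trib3, a pseudokinase induced by ATF4, was at 27.3 and 29.2 CPM, 63.5 and 65.3 and 11.0 and 12.1 in the first 3 of those groups (-1.19 ± 0.08 against pUC19, 1.29 against DKO_2). Atf5 fell by 1.65 ± 0.12, Nupr1 by 1.80 ± 0.16 and Slc3a2, the partner chain of amino-acid exchangers, by 0.74 ± 0.06, whereas Cth, of cysteine synthesis, rose by 0.44 ± 0.08. None of these 4 passed against DKO_2 (Atf5 0.32, adjusted p = 0.0567, Nupr1 -0.03, adjusted p = 0.91, Slc3a2 -0.08, adjusted p = 0.234, and Cth 0.07, adjusted p = 0.418). Promoter stretches of 2 members that fell are shown because both carry the ATF4 composite element, whose letters TGATGNAAN are in capitals on either strand (RefSeq, GRCm38.p6).
Slc7a11 (chr3:50443637-50443695, minus strand): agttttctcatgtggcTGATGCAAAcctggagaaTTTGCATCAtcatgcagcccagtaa
Nupr1 (chr7:126625557-126625597, minus strand): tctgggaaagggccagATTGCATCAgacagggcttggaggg
The element stood within 250 bases before the start in 5 of 20 genes of the list (25.0%), against 2.3% of tested genes and 3.89% of all promoters.

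Targets of p53, the DNA-damage factor, and feedback genes of ERK signalling were less uniform. Of 17 p53 targets 8 fell, 2 rose and 7 did not pass (median -0.38), and against DKO_2 8 were lower and 5 higher. Beside Cdkn1a and Gdf15, Phlda3 was at 20.7 and 21.2 CPM against 38.6 and 42.2 with pUC19 and 36.3 and 38 in DKO_2 (log2 fold change -0.94 ± 0.08), and Ccng1, cyclin G1, rose to 122 and 112 CPM from 78.5 and 67.9 (0.67 ± 0.07). Of 17 ERK feedback genes 8 were lower and 5 higher against DKO_2 (median -0.09), and 8 fell and 2 rose against pUC19 (median -0.12), a count of rises that went to 0 under DESeq2 and without mimic replicate 1 or pUC19 replicate 2. Phlda1 was at 30.7 and 31.9 CPM with the mimic, 62.3 and 63.5 with pUC19 and 25.9 and 26.8 in DKO_2 (-1.01 ± 0.08 against pUC19, 0.25 against DKO_2). The phosphatase gene Dusp1 fell by 1.03 ± 0.10, Dusp4 by 0.45 ± 0.05 and the ETS factor Etv1 by 0.47 ± 0.06. Against DKO_2, Dusp1 was higher (0.27, adjusted p = 0.0395), Dusp4 did not pass (0.00, adjusted p = 0.964) and Etv1 was lower (-0.74).

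Interferon-stimulated genes, the antiviral programme that foreign nucleic acids can switch on, moved both ways. Of 22 tested 8 rose, 5 fell and 9 did not pass (median 0.22), where 28.7% of all genes rose and 27.3% fell. Ddx58, which encodes the RNA sensor RIG-I, was at 46.6 and 43.3 CPM with the mimic, 14.7 and 14.4 with pUC19, 15.3 and 15 in DKO_2 and 11.4 and 14.9 with the miR-137 mimic (log2 fold change 1.63 ± 0.09, adjusted p = 4.11e-11). Eif2ak2, the RNA-activated kinase PKR, was at 47.1 and 46.7 CPM against 29.4 and 26.2 (0.74 ± 0.08), and the signalling factor Stat2 at 69.4 and 68.6 against 49.2 and 47.8 (0.51 ± 0.07). The endosomal sensor Tlr3 was at 2.44 and 2.74 CPM against 1.37 and 1.02 with pUC19 (1.08 ± 0.24) and 1.90 and 2.03 in DKO_2, from which it did not differ past the threshold (0.40, adjusted p = 0.0962). Several inducible members were rare. The chemokine gene Cxcl10 was at 0.906 and 0.852 CPM with the mimic, 4.37 and 4.16 with pUC19, 0.0527 and 0.0509 in DKO_2 and 0.865 and 0.857 with the miR-137 mimic (-2.27 ± 0.24), and Isg15 at 0.433 and 0.593 against 1.53 and 2.04 (-1.75 ± 0.34). Against DKO_2 both were higher (3.91 and 1.68). Ifit2 (-2.16, adjusted p = 0.00202), Oasl1 (-1.44, 0.0247) and Mx2 (-0.82, 0.00494) were also lower than in pUC19, and Parp14 was higher (adjusted p = 0.000351). Against DKO_2, Ifit2 was lower (-2.34, adjusted p = 0.000455) and Mx2 did not pass (-0.17, 0.573). Oasl1 (2.22, adjusted p = 0.042) and Parp14 (1.61, 8.96e-05) were higher than in DKO_2. Some rare inducible members did not pass against pUC19: Rsad2 (0.43, adjusted p = 0.596), Mx1 (1.20, 0.228), Irf7 (2.46, 0.0787), Usp18 (-0.26, 0.803) and Oasl2 (-0.28, 0.8). Without pUC19 replicate 1, 3 genes of the list were lower instead of 5.

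Transcription factors and chromatin complexes changed member by member. Of 10 nuclear factor I and SOX genes 7 fell and 1 rose (median -0.51). Nfic was at 156 and 164 CPM against 351 and 380 (log2 fold change -1.19 ± 0.06) and Nfib at 307 and 306 against 637 and 608 (-1.02 ± 0.05), while Nfia, low at 5.08 and 4.26 CPM, did not pass (0.16 ± 0.18). Sox12 was at 18 and 17 CPM against 46.3 and 47.9 (-1.43 ± 0.10), and Sox11 rose to 52.6 and 53.4 from 32.7 and 32.8 (0.70 ± 0.07). Of 24 polycomb and REST complex genes 11 fell and 5 rose (median -0.09). Bmi1, a core subunit of polycomb complex 1, was at 86.4 and 85.0 CPM against 217 and 198 (-1.28 ± 0.06, adjusted p = 3.8e-12). Rcor2, a REST corepressor, fell by 1.01 ± 0.06 and the phosphatase Ctdsp2 by 0.88 ± 0.06, whereas Rest itself had 115 and 112 CPM against 121 and 115 (-0.06 ± 0.05, adjusted p = 0.376). Ezh1, the paralogue of Ezh2, rose by 0.41 ± 0.09.

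Genes of the miRNA pathway itself included 11 that fell and 6 that rose of 20 tested (median -0.20). Ago1, an Argonaute, was at 39.1 and 40.1 CPM against 81.9 and 76.5 (log2 fold change -1.0 ± 0.07, adjusted p = 2.42e-10). Tnrc6c, a partner of Argonaute in silencing, fell by 0.68 ± 0.06 and Tut4, which uridylates pre-let-7, by 0.62 ± 0.06. Lin28b, which blocks let-7 maturation, was at 115 and 112 CPM against 56.3 and 54.7 with pUC19 and 60.1 and 55.4 in DKO_2 (1.03 ± 0.08, adjusted p = 3.04e-09). Xpo5, the pre-miRNA exporter, rose by 0.43 ± 0.06 and Dicer1 by 0.13 ± 0.05 (adjusted p = 0.0426), the latter not against DKO_2 (-0.01, adjusted p = 0.92).

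Neuronal genes moved in both directions. Of 30 structural and synaptic genes tested 13 fell, 6 rose and 11 did not pass (median -0.27). Tubb3, neuronal tubulin, was at 12.1 and 10.8 CPM against 31.4 and 32.9 with pUC19 and 20.1 and 22.6 in DKO_2 (log2 fold change -1.49 ± 0.12, adjusted p = 4.02e-09). The microtubule protein gene Mapt (tau) was at 7.80 and 8.75 CPM against 21.6 and 18.9 (-1.30 ± 0.11), and Sncg, gamma-synuclein, at 10.5 and 12.8 against 28.3 and 27.1 (-1.25 ± 0.12). Syt1, the calcium sensor of vesicle release, rose to 131 and 133 CPM from 49.8 and 47.4, with 62.4 and 55.2 in DKO_2 (1.43 ± 0.06, adjusted p = 8.55e-13). The RNA-binding protein genes Elavl2 and Elavl4 rose by 0.73 ± 0.08 and 0.52 ± 0.06 against pUC19, and neither passed against DKO_2 (0.15, adjusted p = 0.0932, and 0.01, adjusted p = 0.932). Of 15 catecholamine genes tested 6 fell and 4 rose (median -0.12), where 3 fell without mimic replicate 1 or pUC19 replicate 2 and 2 rose without mimic replicate 2, without pUC19 replicate 2 or under DESeq2. Gata2 fell by 0.72 ± 0.06 and Hand2 by 0.61 ± 0.06, and Ddc, which forms dopamine from its precursor, rose to 7.36 and 7.38 CPM from 5.41 and 4.63 (0.54 ± 0.15, adjusted p = 0.0037).

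Among actin, matrix and Hippo genes, falls outnumbered rises. Of 26 small-GTPase and actin genes 12 fell and 3 rose (median -0.11), with 5 rises without pUC19 replicate 1 and 1 without pUC19 replicate 2. Beside Rhoc and Rock2, the formin Diaph3 fell by 1.11 ± 0.09, the focal adhesion genes Zyx and Pxn by 1.06 ± 0.09 and 0.99 ± 0.08, and Rhoa, at 259 and 243 CPM against 253 and 247, did not pass. Of 22 collagen and matrix genes 11 fell and 3 rose (median -0.15). The basement membrane genes Lamc1 and Col4a2 were prominent, Col4a2 at 13.0 and 13.4 CPM against 41.4 and 39.3 (-1.61 ± 0.09) and Lamc1 lower by 1.03 ± 0.05 on the log2 scale, with the laminin chain Lama5 (-0.79 ± 0.07) and the protease inhibitor Timp2 (-0.71 ± 0.08). Of 15 YAP/TEAD targets 7 fell and 3 rose (median -0.10). Lats2, the kinase that inactivates YAP and is itself a YAP target, rose to 46.2 and 44.2 CPM from 17.4 and 15.6, with 17 and 16.3 in DKO_2 (1.44 ± 0.08, adjusted p = 3.1e-11). Amotl2 (-1.50 ± 0.16), Rbms3 (-0.61 ± 0.06) and Tgfb2 (-0.43 ± 0.06) fell. Against DKO_2 the list had 4 members higher and 4 lower, and Amotl2 did not pass (-0.26, adjusted p = 0.213).

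Metabolic lists stayed near the median of all genes. Of 25 hypoxia and glycolysis genes 7 fell and 6 rose (median -0.07): Hif1a, Vegfa (-0.64 ± 0.07) and pyruvate kinase Pkm (-0.51 ± 0.05) fell, and the glucose transporter Slc2a3 rose to 286 and 282 CPM from 173 and 166 (0.75 ± 0.05). Vegfa was at 145 and 144 CPM with the mimic, 222 and 228 with pUC19 and 135 and 143 in DKO_2, against which it did not pass (0.05, adjusted p = 0.514). Of 23 cholesterol synthesis genes 10 rose and 5 fell, or 3 fell without pUC19 replicate 1 (median 0.09), with Srebf2, the regulator of the pathway, lower by 0.56 ± 0.06 and the enzymes Mvd and Lss higher by 0.67 ± 0.09 and 0.41 ± 0.07. Of the 9 glial, fibroblast and immune markers that passed the low-count filter 1 changed, Dcn, at 8.51 and 7.12 CPM against 5.19 and 4.32 (0.70 ± 0.15).

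**Figure D4:**
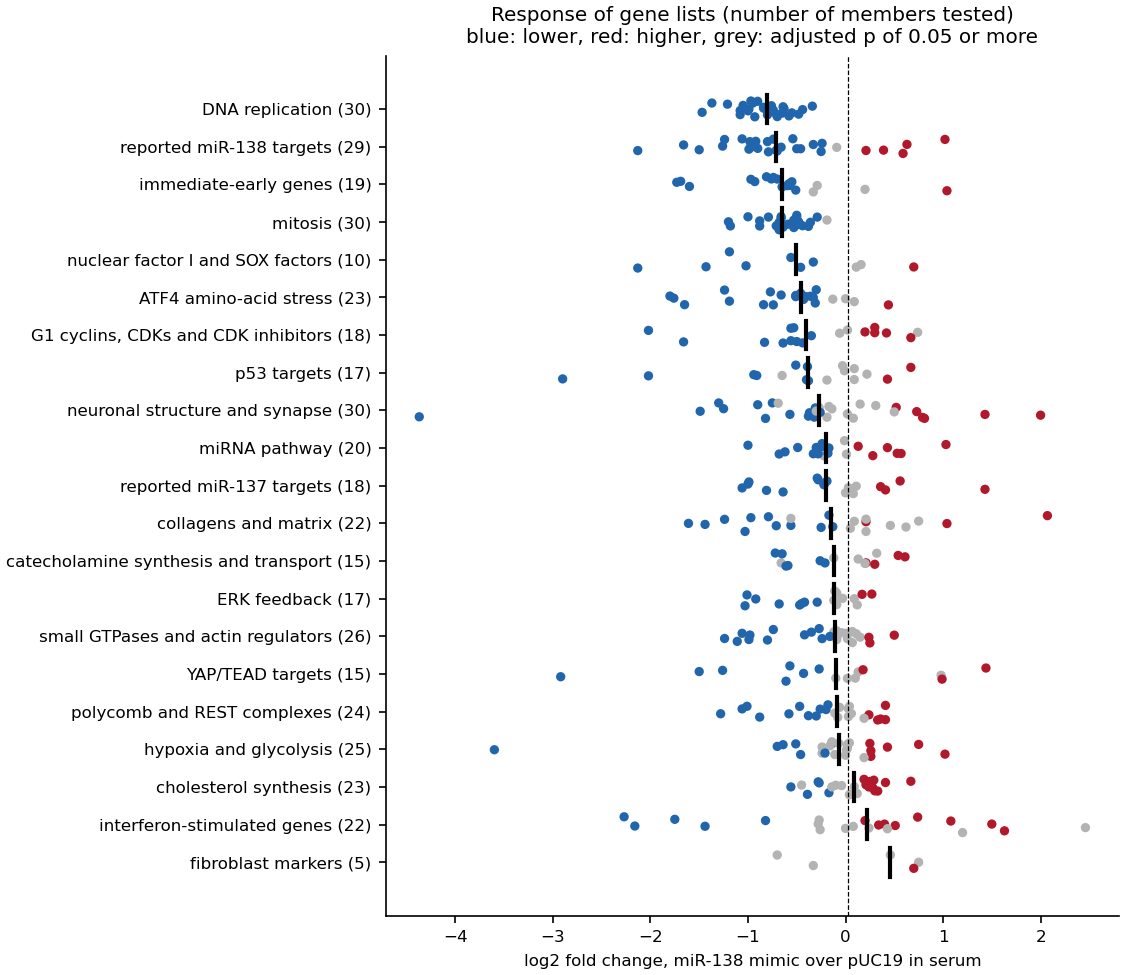
Log2 fold changes (miR-138 mimic over pUC19 in serum) of the members of each gene list with at least 5 genes tested; points are genes (blue lower, red higher, grey adjusted p of 0.05 or more), bars list medians, and the dashed line the median of all genes tested, 0.03. The replication list lies wholly to the left, between -1.47 and -0.34.

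Setting the miR-138 mimic directly against the miR-137 mimic removes pUC19 from the comparison, since both arms then carried 3 nM of a duplex RNA. Of the 12655 genes 4133 were higher with miR-138 (32.7%) and 3886 lower (30.7%), together 63.4%. The replication list was lower with miR-138 in 29 of 30 genes (median -0.85), the mitotic list in 29 of 30 (median -0.87) and the reported miR-138 targets in 22 of 29 (median -0.83). The exceptions in the first 2 lists, named after their values were seen, were the GINS subunit Gins2 (0.27) and the survivin gene Birc5 (0.55), both of which stood lowest with the miR-137 mimic, Gins2 at 31.1 and 31.9 CPM and Birc5 at 37.0 and 45.6. Reported miR-137 targets went the other way, 14 of 18 higher with miR-138 (median 0.26), while against pUC19 they had 10 lower and 4 higher (median -0.20). Tcf4, a transcription factor reported as a miR-137 target, was at 240 and 250 CPM with miR-138, 217 and 232 with miR-137 and 441 and 420 with pUC19. Carm1, another, was at 54.0 and 51.2 CPM with miR-138 and 114 and 112 with miR-137.

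Among the largest differences between the mimics were Celf3, a neuronal splicing factor (-3.27), Cdkn1a (-2.97) and Ier5l (-2.71) on the low side of miR-138. On the high side were Cyp2s1 (3.46), Hist1h2bc, a histone gene (3.18), Cyyr1 (3.10) and Chrna3 (2.96). Chrna3 was at 31.6 and 33.4 CPM with miR-138, 4.19 and 4.14 with miR-137 and 12.9 and 12.2 in DKO_2, so the mimics lay on opposite sides of both other serum groups. Some falls against pUC19 were shared by both mimics: the difference between the mimics did not pass for Sp1 (0.01, adjusted p = 0.928), Nfib (-0.09, adjusted p = 0.137), Ago1 (-0.14, adjusted p = 0.0905) and Timp2 (-0.04, adjusted p = 0.665). For Hmox1 and Slc7a11, high in pUC19, the mimics differed by -0.17 and 0.23. Stress lists had medians of -0.23 (ATF4) and -0.64 (immediate-early) between the mimics.

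The mimic response 2 days after serum removal, measured in other libraries of both arms, had 3914 genes higher (30.9%) and 3937 lower (31.1%), together 62.0%. Of the genes lower in serum 72.7% were also lower then and 5.61% were higher, and of those higher in serum 65.7% were also higher and 4.93% lower. Across the 12655 genes the fold changes had a Pearson r of 0.57 and a Spearman rho of 0.63, a description over genes that share libraries and are not independent. A test of the difference called 3522 genes (27.8%), 1838 with a more positive effect in serum and 1684 with a more negative one. The 2-day libraries were taken later after transfection than the serum libraries, and no group was kept in serum for that time. Serum removal and time since transfection therefore cannot be told apart. Replication and mitosis kept medians of -0.77 and -0.51 without serum, and the difference passed for 3 genes of each list. The reported targets had 23 lower and 3 higher (median -0.45). Nfix was at 70.0 and 81.0 CPM with the mimic and 286 and 283 with pUC19 at 2 days, and its effect of -1.92 there did not pass as different from serum (adjusted p = 0.0714).

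The difference between the conditions passed for 13 of the 29 reported targets, 5 with a more positive and 8 with a more negative effect in serum. Rhoc fell by 1.24 in serum and by 0.41 at 2 days (difference -0.83, adjusted p = 4.69e-06), where its pUC19 level was 85.9 and 91.1 CPM and its mimic level 61.0 and 72.7. Ccnd1 fell by 0.50 in serum and by 1.81 at 2 days, where it was at 48.7 and 48.3 CPM against 182 and 159 (difference 1.31, adjusted p = 2.45e-09). In the ATF4 list 13 of 23 genes had a more negative effect in serum and 1 a more positive one. Trib3 fell by 1.19 in serum and rose by 0.49 at 2 days. Among hypoxia and glycolysis genes 14 of 25 had a more positive effect in serum, and 20 of the 25 were lower at 2 days, against 7 in serum. Neuronal genes had 16 of 30 higher at 2 days against 6 in serum, with 9 effects more negative in serum. Slc40a1, the iron exporter, was at 37.8 and 40.9 CPM with the mimic against 24.6 and 20.9 in serum (0.78 ± 0.09), and at 429 and 381 against 9.74 and 10.3 at 2 days (5.34).

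**Figure D5:**
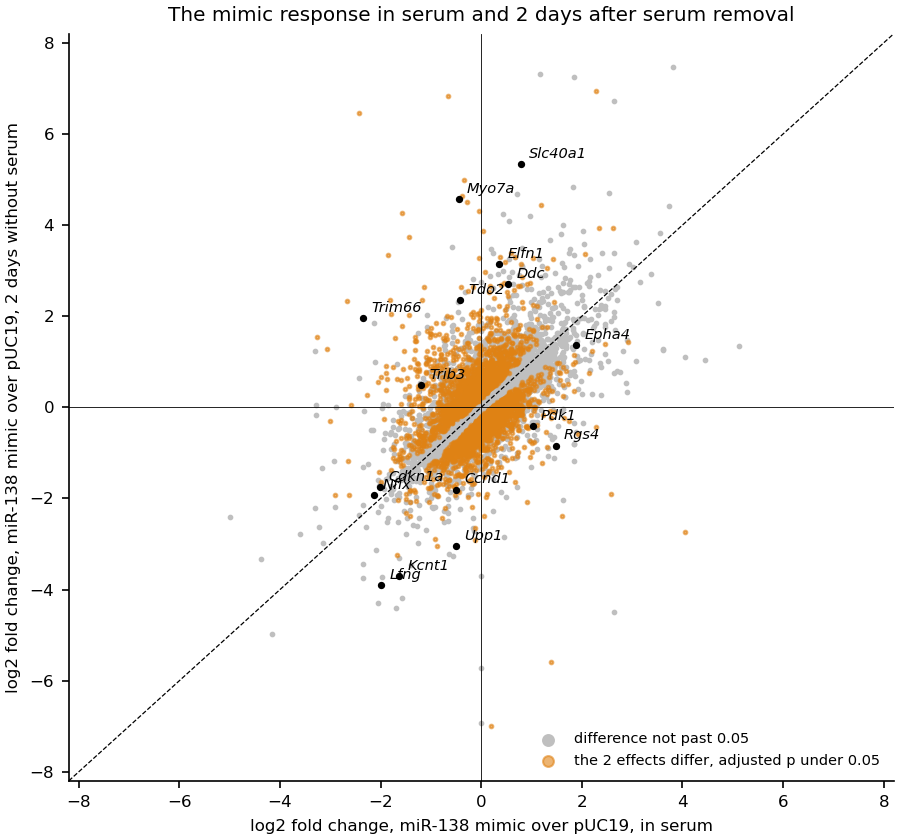
Log2 fold change of each gene with the miR-138 mimic over pUC19 in serum (horizontal) and 2 days after serum removal (vertical), with the dashed line where both are equal; orange genes differed between the conditions at an adjusted p under 0.05. Nfix and Cdkn1a lie near the line, Slc40a1 (0.78 and 5.34) and Myo7a far above it, and Ccnd1 and Upp1 below it.

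Beyond the target list, the mimic response and the difference between DKO and wild-type cells had little in common gene by gene: across the 12388 genes in both fits, r was -0.09 and rho -0.11. Of genes at least 2-fold higher with the mimic 23.6% were lower in DKO cells and 9.40% higher, against 20.7% and 20.8% of all genes. Of genes at least 2-fold lower 25.9% were higher in DKO cells and 22.6% lower. Of the 30 replication genes 21 were higher in DKO cells and 0 lower, and of the mitotic genes 14 and 0. The 2 experiments differ in library protocol and read length, per the labels, and share no library.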

How the data were processed

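Per the submitters' processing notes, reads were processed with STAR on mm9, with no versions named. Per the labels' protocols, the libraries were stranded, polyA-selected and read as 50-base single ends. The deposited values are raw counts of reads per gene from the authors' alignment; column 4, which held nearly all assigned reads (column 3 held 3.24% to 3.67% of them in experiment 3), was used, and multimapped reads (16.4% to 18.5%) are uncounted, which lowers genes with close copies. Of 37310 gene IDs 87.4% matched a symbol.

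All 14 libraries of experiment 3 (8 of the first, apart) were fitted with edgeR 4.0.16 in R 4.3.3: TMM scaling, filterByExpr (minimum count 10, total 15), quasi-likelihood tests and Benjamini-Hochberg adjustment at 0.05. CPM values are TMM-scaled. On simulated counts for the main comparison (12655 genes, 200 changed), 75% of 1.5-fold and 84% of 2-fold changes were recovered, with 6.47% false calls. The simulated counts took the fitted spread and far fewer changed genes than the 56.0% called in the data. These rates therefore need not carry over to the data.

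The gene lists and the comparison were chosen with earlier results of these data known. Named genes were the 12 largest changes each way (mean of at least 5 CPM, no overlap), all tested reported miR-138 targets, up to 4 members of each other list by lowest adjusted p and the 4 largest each way in the 2 difference tests. Some genes that meet this rule are not reported here. Named beyond that, after their values were seen, were Mcm2 to Mcm7, Rrm2, Cdc6, Gins2, Gins3, Bub1, Birc5, E2f1, Cdkn2a, Cdkn2c, Rb1, Rbl1, Rbl2, Junb, Fos, Myc, Nupr1, Cth, Tlr3, Isg15, Ifit2, Oasl1, Mx2, Parp14, Rsad2, Mx1, Irf7, Usp18, Oasl2, Nfia, Sox11, Rest, Ezh1, Xpo5, Dicer1, Elavl2, Elavl4, Diaph3, Zyx, Pxn, Rhoa, Phox2a, Prph, Dbh and Th. Alternatives were DESeq2 1.42.0, RLE scaling, no filter, a replicate block, unstranded counts, the compared libraries alone and each library left out.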

Additional observations from a re-analysis of the deposited data

Results flagged for a closer look

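Of 134 named genes 74 had a mimic effect that differed between serum and 2 days without serum by edgeR's test of the difference, and for 24 the difference was at least 1 on the log2 scale. Over all 12655 genes tested 3522 (27.8%) differed. Some named genes were chosen for passing this same test and most others for large or significant changes. Their count is therefore no evidence about the named genes as a set. Differences are serum minus 2 days, with 2 libraries in each of the 4 groups, and causes were not tested.

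Genes with a more negative effect in serum included several that were high in the pUC19 serum libraries. Trim66 fell by 2.35 in serum and rose by 1.95 at 2 days (difference -4.29, adjusted p = 1.7e-08), and Vgf fell by 2.65 and by 1.18 (-1.47). The stress genes Atf3 (-1.67), Trib3 (-1.68) and Atf5 (-1.35) and the chemokine Cxcl10 (-2.55) differed the same way. So did the neuronal genes Sncg (-1.71) and Celf3 (-2.13) and the water channel Aqp4 (-1.22), which did not pass in serum. Rises seen mainly at 2 days gave Ddc, with effects of 0.54 and 2.70 (-2.16), Slc40a1 with 0.78 and 5.34 (-4.56) and Myo7a with -0.45 and 4.57 (-5.01). Elfn1 (-2.81), Tdo2 (-2.79) and Hist1h2bc (-1.75) followed; Hist1h2bc belongs to a histone family with near-identical copies, so its counts are uncertain.

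Effects more positive in serum were found for the cyclin gene Ccnd1 (difference 1.31), for Lfng (1.92), which fell by 1.99 in serum and by 3.91 at 2 days, for Upp1 (2.55) and for Kcnt1 (2.09). Among genes that rose in serum were Myo16 (1.20) and Rgs4 (2.32), with effects of 1.48 and -0.84. Tert (1.04) and Pdk1 (1.43) also rose in serum and fell at 2 days, by 0.45 and 0.41. Optc, with effects of 0.12 and -1.91, differed by 2.03.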

How the results depend on the processing

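Counts of genes past the threshold stayed within 1.5 times the reported count under every alternative run: 5888 to 7328 for the miR-138 mimic against pUC19, 2665 to 3903 for serum against 2 days, 6763 to 8240 between the mimics and 3937 to 6029 for DKO against wild type. Leaving out 1 library at a time gave 5888 to 6175 for the main comparison, 2753 to 3256, 6763 to 7220 and 3937 to 6029 for the others. Rises made up 51.2% of the main calls, 48.8% with RLE scaling and 47.1% with DESeq2. Same-numbered replicates did not vary together (correlation of deviations 0.0669, and -0.187 to 0.0964 over 21 pairs of groups); with the replicate number as a block the main comparison called 7328 genes, the serum difference 3903, the mimics 8195 and DKO against wild type 5929. Of 1530 recomputed values of named genes 1522 kept direction and side of the threshold, none reversed, and 8 lost significance, for Mxd1, Yap1 and Map3k11 as given above, for Upp1 (-0.40, adjusted p = 0.0578 without mimic replicate 1 and -0.31, adjusted p = 0.127 without pUC19 replicate 2) and for the serum difference of Kcnt1 (2.06, adjusted p = 0.0542 without mimic replicate 1). Of 460 recomputed list counts 21 moved by over 1.5 times, all of them counts of 6 or fewer. Depth limits the rarest genes: Cxcl10, Isg15 and Trim66 rest on few reads in the DKO_2 libraries.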

Other observations

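Genes outside the naming rule, picked after their values were seen, stood far from the DKO_2 level. Ddit3, the stress factor CHOP and a member of the ATF4 list, was at 34.1 and 34.2 CPM with the miR-138 mimic, 60.6 and 62.2 with pUC19 and 4.90 and 5.75 in DKO_2, a log2 fold change of -0.84 ± 0.10 against pUC19 (edgeR adjusted p = 6.33e-07) and 2.68 against DKO_2. Both the mimic and the pUC19 libraries thus stood above DKO_2. Hist1h1c, a linker histone gene, was at 53.4 and 48.8 CPM with the mimic, 18.8 and 19.2 with pUC19 and 5.06 and 4.93 in DKO_2 (1.43 ± 0.10, adjusted p = 6.76e-10).

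Mycn and Myc moved in opposite directions against pUC19 in serum. Mycn, the neuroblastoma oncogene, was at 104 and 107 CPM with the mimic, 69.5 and 74.5 with pUC19 and 105 and 110 in DKO_2 (0.55 ± 0.07, adjusted p = 8.1e-07), so the mimic libraries met the DKO_2 range. Myc fell by 0.60 against pUC19 and was also lower than in DKO_2 (-0.44). At 2 days without serum both were lower with the mimic, Mycn by 1.41 and Myc by 1.44 on the log2 scale.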
